A study of Mus musculus with 12 samples.

Results

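Cytosolic ribosomal protein genes encode the protein part of the ribosomes that translate messages in the cytoplasm. They were taken here as every probe set with a single gene symbol that is Rpl or Rps followed by a digit, or Rplp0, Rplp1, Rplp2 or Rpsa. Symbols of the Rps6k kinases and of pseudogenes were left out, and the brightest probe set over the 12 arrays stood for each gene. This gave 72 genes of 17097 with a probe set of their own, from 135 probe sets of 45141. By role they were 38 large-subunit proteins, 24 small-subunit proteins including Rpsa, the 3 proteins of the ribosomal stalk and 6 paralogs (Rpl3l, Rpl7l1, Rpl22l1, Rpl36al, Rpl39l and Rps27l). The remaining gene, Rps19bp1, fits the rule by its name only, since it encodes a binding partner of Rps19 and no ribosome constituent.

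The ribosome is built in the nucleolus from ribosomal RNA and about equal amounts of each of these proteins, most of them from single-copy genes. Their messages carry a pyrimidine tract at the very start, the TOP motif, through which the kinase mTORC1 and the protein Larp1 set how much of them is translated. Control is therefore often exerted on translation, and message levels on an array do not show it. In neurons, protein synthesis at and near synapses is needed for lasting changes in excitability.

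The study compared the hippocampus of mice after status epilepticus with that of seizure-free mice. In the KA groups, 0.3 µg of kainic acid, an agonist of glutamate receptors that sets off prolonged seizures, was injected into the amygdala in 0.2 µl of buffered saline, and lorazepam, an anticonvulsant, followed at 6 mg/kg into the peritoneum after 40 min. Control mice had 0.2 µl of vehicle alone injected at the same place. Lorazepam is mentioned only with KA, so the drug may separate the groups as well. Total RNA was taken from the hippocampus of the injected side, with 3 arrays each for KA at 8 h, control at 8 h, KA at 14 d and control at 14 d. Every title begins with the word Input, which the labels do not explain, and the values were read as those of total hippocampal RNA. Strain, age, sex and genotype are not in the labels, and nothing in them says that the arrays come from separate animals, so p-values measure the spread between these samples, which may be technical.

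Some features of the arrays stood apart. Time entries in the labels ran from 8 h to 10 h over the 8 h controls and from 11 h to 13 h over the KA arrays titled 8 h, and the titles were followed. Xist, the noncoding RNA of X inactivation, was higher by 3.53 (log2) in the KA group at 8 h, and the Y-linked Eif2s3y fell by 1.39, so sex and KA cannot be told apart at 8 h. The third arrays of KA and control shared deviations, with correlations across genes of 0.41 at 8 h and 0.46 at 14 d. Array medians lay between 4.90 and 4.95 (log2). The difference between 3′ and 5′ probe sets of Actb, a measure of RNA integrity, lay between -0.35 and -0.27 on the KA arrays at 8 h and between -0.31 and -0.28 on their controls. At 14 d its range was -0.52 to -0.43 in the KA group and -0.45 to -0.41 in controls. The 14 d arrays thus lay below the 8 h arrays in both conditions. The same differences for Gapdh and Tfrc overlapped between 8 h and 14 d in both conditions. That of Gapdh was highest on the second KA array at 8 h, at 0.06.

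As a view of where these genes start, the stretch around the RefSeq transcription start (assembly GRCm38.p6, 80 bases before to 20 after) is shown for the 5 genes that rose at 8 h, for Rpl22, whose product is known in mouse to repress its paralog Rpl22l1, and for Rps6, the substrate of S6 kinase. Capitals mark CGGAAG, the core recognised by ETS factors, on either strand (CTTCCG on the other), and CTTTCC, a pyrimidine tract, on the transcript's strand.
Rplp0, chr5:115559387-115559486, plus strand: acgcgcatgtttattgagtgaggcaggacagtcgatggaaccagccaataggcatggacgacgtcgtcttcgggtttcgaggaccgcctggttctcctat
Rpl41, chr10:128549149-128549248, minus strand: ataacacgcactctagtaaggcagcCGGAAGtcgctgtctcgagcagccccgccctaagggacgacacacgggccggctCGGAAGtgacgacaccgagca
Rpl36al, chr12:69184048-69184147, minus strand: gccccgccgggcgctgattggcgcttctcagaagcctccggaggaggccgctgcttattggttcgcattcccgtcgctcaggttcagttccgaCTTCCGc
Rps27l, chr9:66946006-66946105, plus strand: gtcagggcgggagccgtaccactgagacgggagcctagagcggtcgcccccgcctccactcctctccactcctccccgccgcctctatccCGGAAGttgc
Rpl22l1, chr3:28805428-28805527, plus strand: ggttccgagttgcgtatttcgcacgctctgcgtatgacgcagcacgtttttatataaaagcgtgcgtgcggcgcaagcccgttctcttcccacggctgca
Rpl22, chr4:152325646-152325745, plus strand: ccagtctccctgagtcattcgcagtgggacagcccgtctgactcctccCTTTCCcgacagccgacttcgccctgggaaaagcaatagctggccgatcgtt
Rps6, chr4:86857348-86857447, minus strand: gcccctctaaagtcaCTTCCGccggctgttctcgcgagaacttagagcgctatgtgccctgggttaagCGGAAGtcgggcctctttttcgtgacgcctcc
The printed stretches of Rplp0 and Rpl22l1 hold neither string, which does not show whether their messages start with a TOP motif. Over the whole promoter entries of 300 bases, 250 before the start and 50 after it, 58 of the 72 genes matched the RefSeq table.

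CGGAAG stood in 41 of these 58 promoters (70.7%), and in 17.2% of all 27025 promoters, taken as the first entry of each gene. Further starts of a gene were not searched. Rps27l and Rpl22 have 2 starts, and the first is shown above. CTTTCC stood in 20 (34.5%), against 14.0% of all promoters. Of the 5 genes that rose, CGGAAG stood in Rpl36al, Rpl41 and Rps27l, and CTTTCC in Rpl36al and Rplp0. Strings recognised by activity-linked factors were also counted. TGACGTCA, the cyclic AMP response element, stood in 4 of the 58 (6.9%), a higher share than over all promoters (1.88%). TGANTCA, the AP-1 site, stood in 2 (3.45%), a lower share than over all (7.93%). The E-box CACGTG, which Myc can bind, stood in 5 (8.62%, and 7.24% of all). TGACGTCA, TGANTCA and CACGTG were searched on both strands, and none of the 3 stood in the promoter of a gene that rose. With 5 such genes and strings this rare, that absence says little. A match describes the letters only.

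Most of the genes were well measured. All 72 passed the filter on low values, and 70 lay above the array's own background probe sets on all 12 arrays. Rpl14 and Rpl39l did so on 9 arrays, and their values carry little information. The probe set for Rpl14 alone is dim, while 4 probe sets named for Rpl14 and its pseudogene together lay between 9.76 and 9.88 (log2, mean over the arrays). Replicates agreed closely, with a median within-group SD of 0.07 (log2) over the 72 genes and 0.12 over all 13853 genes tested. Of the probe sets used, 20 carry the suffix x_at and 6 the suffix s_at, which mark probes that can bind related transcripts. Ribosomal protein genes have many processed pseudogenes, so such values may include them. In bulk tissue, fewer cells of a type and less RNA per cell cannot be told apart.

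After KA at 8 h, 5 of the 72 genes rose and none fell, at an adjusted p under 0.05 in limma over all genes tested. That is 6.94%, and 17.5% of all genes passed in either direction (7.92% higher and 9.55% lower). At an unadjusted p under 0.05, 11 of the 72 (15.3%) passed, all of them higher, beside 29.0% of all genes in either direction. The genes that rose were Rplp0 of the stalk, Rpl41 of the large subunit and the paralogs Rpl22l1, Rps27l and Rpl36al. Thus 3 of the 6 paralogs rose and 2 of the 65 standard ribosomal proteins, and the difference between these shares was not tested.

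**Figure D1:**
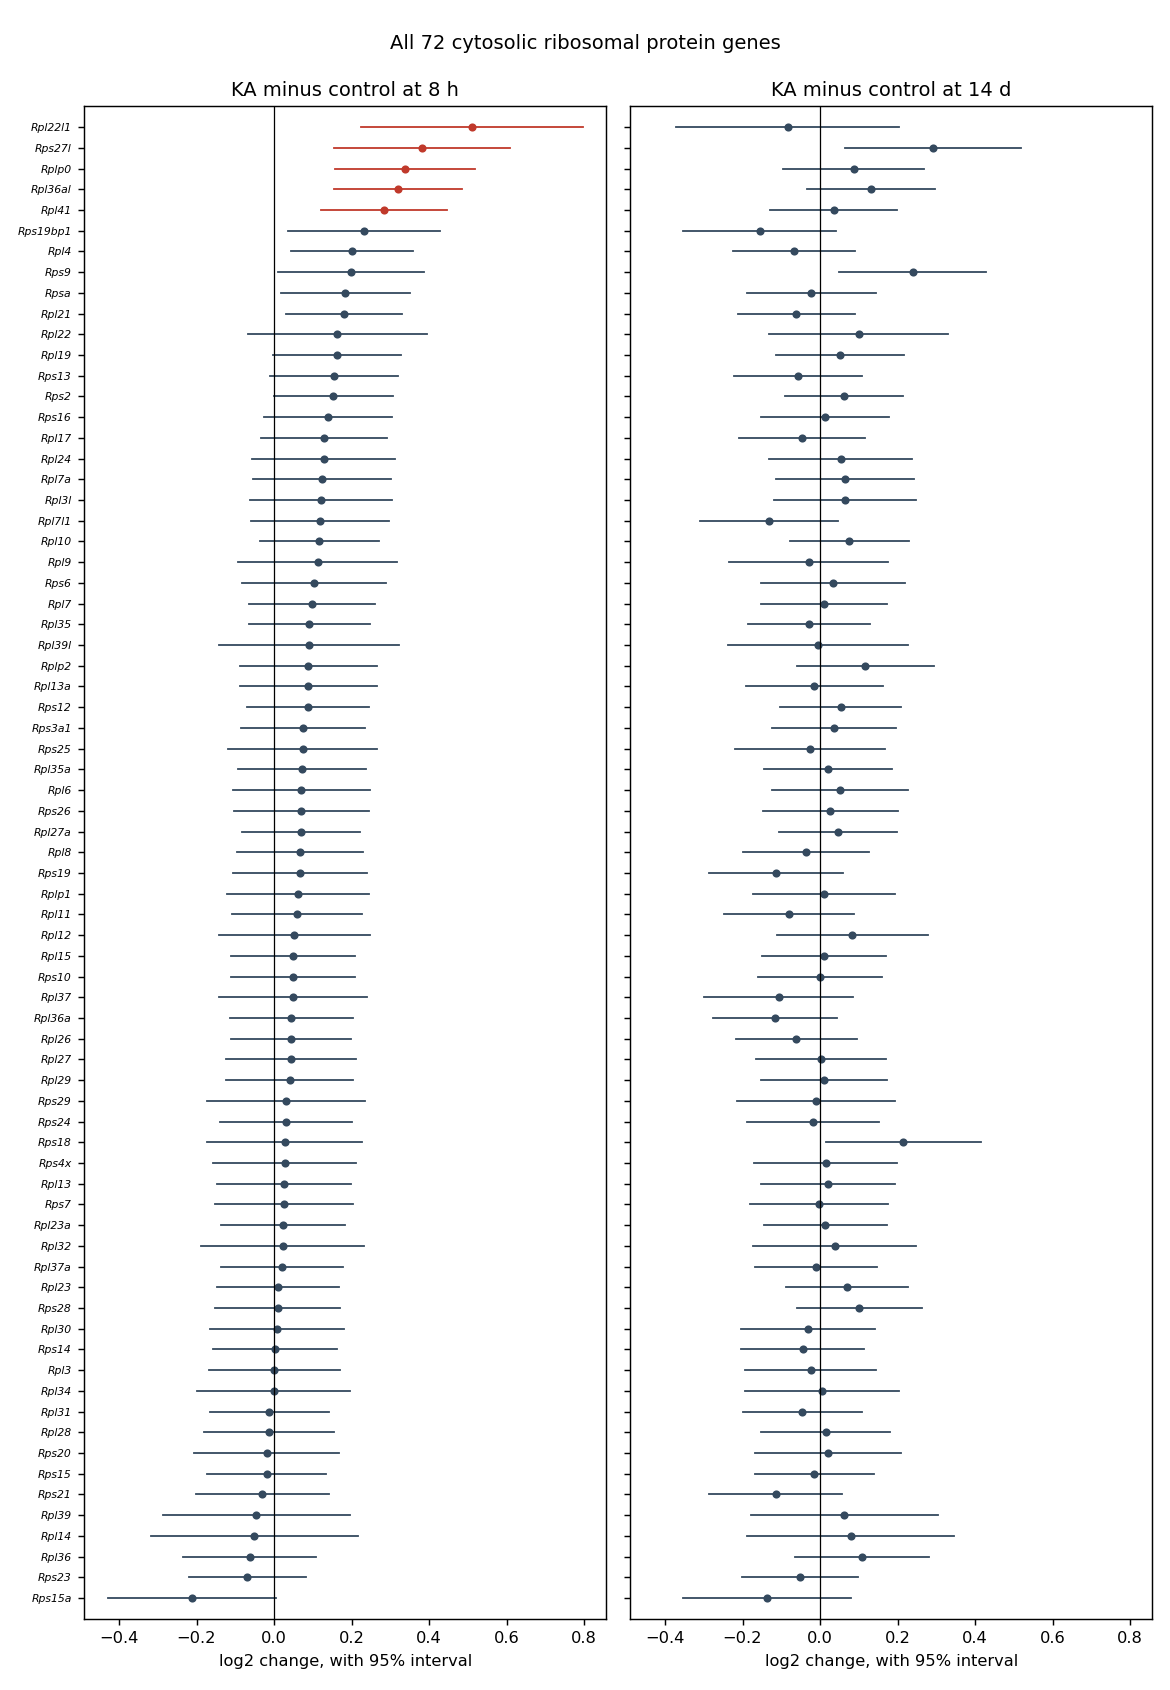
Change of each of the 72 genes as KA minus control (log2, horizontal axis) at 8 h (left) and 14 d (right), with 95% intervals from limma; genes are in the order of their change at 8 h and red marks an adjusted p under 0.05. The 5 red genes head the 8 h panel, and no gene is red at 14 d.

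The largest rise was that of Rpl22l1. It measured 6.58, 6.50 and 6.88 (log2) on the KA arrays at 8 h, against 6.15, 6.05 and 6.22 on the controls. Every KA array lay above every control array, with a log2 change of 0.51 ± 0.13 (SE), or 1.42-fold (limma, adjusted p = 0.0157). At 14 d the KA arrays read 5.88, 5.77 and 6.37, against 6.11, 6.13 and 6.03 in controls. There the groups overlapped, and the third KA array was the highest of the 6. The change at 14 d less the change at 8 h was -0.59 (limma, adjusted p = 0.0919), which did not pass. The call at 8 h was lost without the second control (adjusted p up to 0.0719) or without the third KA array, with the change between 0.40 and 0.59 over all settings.

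Its counterpart Rpl22, the standard large-subunit protein, did not pass at 8 h. It measured 7.70, 7.98 and 7.61 on the KA arrays, against 7.68, 7.60 and 7.52 on the controls. The groups overlapped, the second KA array stood highest, and the change was 0.16 ± 0.11 (limma, adjusted p = 0.371). A second probe set of Rpl22, which has the suffix s_at, differed by -0.18 at 8 h and by -0.25 at 14 d, so its probe sets disagree in sign.

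Rps27l, the paralog of Rps27 and a known target of p53 in human cells, had 6.39, 6.47 and 6.47 on the KA arrays at 8 h, against 6.21, 5.93 and 6.05 on the controls. All KA arrays were higher, by 0.38 ± 0.11 or 1.30-fold (limma, adjusted p = 0.0212). Of its other 2 probe sets, the one of like brightness (6.15, mean over the arrays) was higher by 0.15 and a dimmer one (4.98) by 0.33. At 14 d the KA arrays had 6.13, 6.16 and 6.54 and the controls 5.95, 6.01 and 6.01. The groups again did not overlap, and this was the member with the largest change at 14 d, at 0.29 (limma, adjusted p = 0.221). The call at 8 h was lost with the mean of its probe sets, and without the second or the third array of either group (adjusted p up to 0.105).

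Rpl36al, the autosomal paralog of the X-linked Rpl36a, read 9.40, 9.45 and 9.45 on the KA arrays at 8 h, against 9.08, 9.19 and 9.07 on the controls. The groups were well apart, with a change of 0.32 ± 0.08 or 1.25-fold (limma, adjusted p = 0.00949), the smallest adjusted p of the 72. At 14 d it read 9.54, 9.38 and 9.50 on the KA arrays and 9.39, 9.36 and 9.27 on the controls, and the groups overlapped. Rpl36a itself differed by 0.04 ± 0.07 at 8 h (limma, adjusted p = 0.778). The probe set of Rpl36al has the suffix s_at and may bind both, and its call was lost with the third array of every group left out (adjusted p = 0.0764).

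Rplp0, the stalk protein P0 that anchors P1 and P2 and helps to recruit the elongation factors, measured 10.06, 10.20 and 9.98 on the KA arrays at 8 h, against 9.72, 9.78 and 9.72 on the controls. Every KA array was higher, by 0.34 ± 0.08 or 1.26-fold (limma, adjusted p = 0.0118). At 14 d the values were 10.13, 10.01 and 9.87 on the KA arrays and 9.92, 9.93 and 9.91 on the controls. Here the third KA array lay below all controls, and the change was 0.09 (limma, adjusted p = 0.764). Rplp0 is often used to normalise expression measurements. Without the second KA array its adjusted p at 8 h was 0.0534, the one setting in which the call was lost at the usual threshold.

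The partners of Rplp0 on the stalk did not pass. Rplp1 averaged 9.71 ± 0.06 (SD, n = 3) in the KA group at 8 h and 9.65 ± 0.11 in controls, and Rplp2 averaged 8.77 ± 0.08 and 8.68 ± 0.05 in the same groups. Their changes were 0.06 (limma, adjusted p = 0.728) and 0.09 (limma, adjusted p = 0.562), and the arrays of both genes overlapped.

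Rpl41, a very short basic protein at the junction of the subunits, had 11.23, 11.34 and 11.27 on the KA arrays at 8 h, against 11.01, 11.01 and 10.99 on the controls. The change was 0.28 ± 0.08 or 1.22-fold (limma, adjusted p = 0.0179), with no overlap. Its 3 other probe sets were also higher, but the other bright one (10.89, mean over the arrays) by 0.07 only. The changes of 0.22 and 0.32 came from dim probe sets, at 5.49 and 4.81. At 14 d its change was 0.03, and KA and control arrays overlapped. Its call was lost without the x_at and s_at probe sets, with the third arrays left out, and without the second KA array or the second or the third control (adjusted p up to 0.12).

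**Figure D2:**
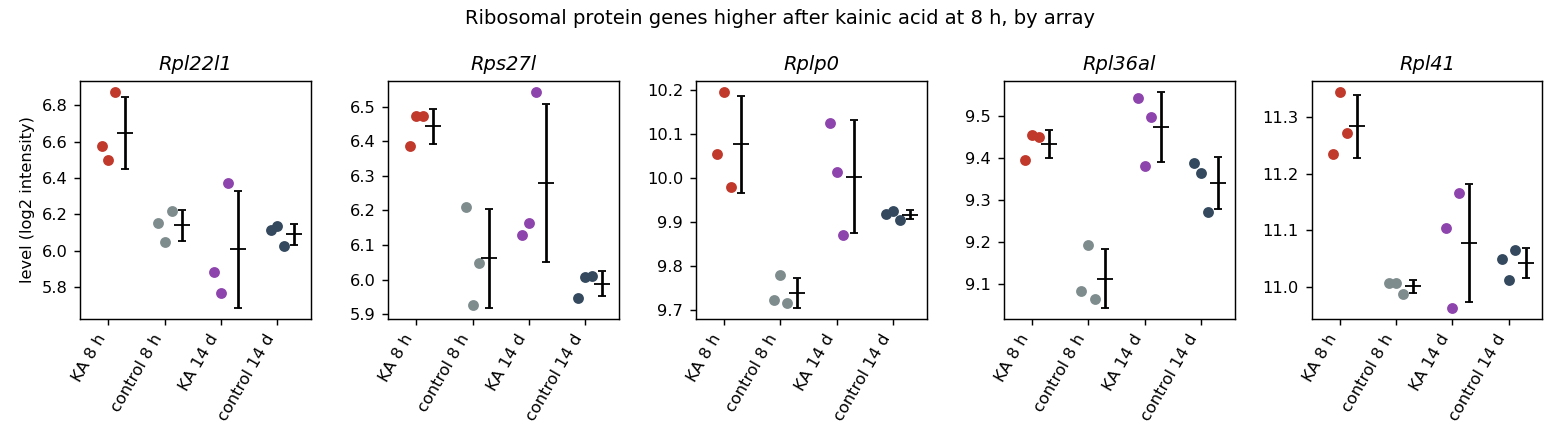
Level (log2 intensity, vertical axis, a separate range for each gene) of the 5 genes that rose at 8 h, on each array of the 4 groups; black bars are the mean and SD of the 3 arrays. In each panel the 3 KA arrays at 8 h lie above the 3 controls at 8 h, and at 14 d only those of Rps27l do not overlap.

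Among standard large-subunit proteins, Rpl4 came nearest to the threshold. Rpl4, which lines the exit tunnel of the new peptide, had 11.48, 11.57 and 11.56 on the KA arrays at 8 h, against 11.29, 11.36 and 11.36 on the controls. The groups did not overlap, and the change was 0.20 (limma, adjusted p = 0.0765). Rpl21 differed by 0.18 (limma, adjusted p = 0.0958), also with no overlap. Rpl3, at the peptidyl transferase centre, averaged 11.17 in both groups, with an SD of 0.06 in KA and 0.02 in controls. Rpl10, a late-joining protein coded on the X chromosome, differed by 0.12, and Rpl11, which can bind Mdm2 and so act on p53, by 0.06. Rpl13a, which in human cells can leave the ribosome to silence inflammatory messages, differed by 0.09, Rpl39 of the exit tunnel by -0.05 and Rpl36 by -0.06. None of these passed.

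No small-subunit gene passed at 8 h, and the median change of the 24 was 0.04. Rpsa, also known as a laminin receptor, had 10.83, 10.94 and 10.82 on the KA arrays, against 10.70, 10.73 and 10.62 on the controls. The arrays did not overlap, and the change of 0.18 missed the threshold (limma, adjusted p = 0.128). Rps6 read 11.21, 11.07 and 11.31 on the KA arrays and 11.09, 11.09 and 11.10 on the controls, and the second KA array lay below all controls. Rps19, whose human counterpart is mutated in Diamond-Blackfan anaemia, differed by 0.07, and the X-linked Rps4x by 0.03.

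The most negative difference at 8 h was that of Rps15a, with 5.01, 5.18 and 4.96 on the KA arrays and 5.19, 5.19 and 5.40 on the controls. The highest KA array lay just below the lowest controls, and the difference of -0.21 did not pass (limma, adjusted p = 0.185). The probe set of Rps15a is dim, at 5.16 (mean over the arrays), where background probe sets averaged up to 4.68 on an array. Rps23, at the decoding centre, differed by -0.07, again with no overlap. The paralogs that did not pass were Rpl3l (known from striated muscle) at 0.12, Rpl7l1 at 0.12 and Rpl39l (known from testis) at 0.09. Dimmer probe sets of Rpl7l1 differed by 0.38 (level 5.73) and by 0.07 (level 5.65). Rps19bp1 was higher by 0.23 (limma, adjusted p = 0.0997) with overlapping groups.

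Across the 72 genes the values at 8 h were small and mostly of one sign. The median log2 change was 0.07, beside -0.02 over all genes tested, and 61 of the 72 (84.7%) were above 0, beside 45.9% of all genes. Groups did not overlap for 18 genes with KA higher and 2 with KA lower, 27.8% of the 72, while 33.8% of all genes did not overlap (14.8% with KA higher and 18.9% with KA lower). The genes share arrays and are not independent: their deviations from the group means correlated with a median of 0.28 over 2556 pairs, so the common sign is a description. Rpl22l1 was the one gene with a change over 0.5. The 95% interval lay within ±0.25 (1.19-fold) for 41 genes and within ±0.5 (1.41-fold) for 69. Each interval is for its own gene, from the spread between these samples under the scaling used. It does not bound a shift shared by most genes, which RMA removes.

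**Figure D3:**
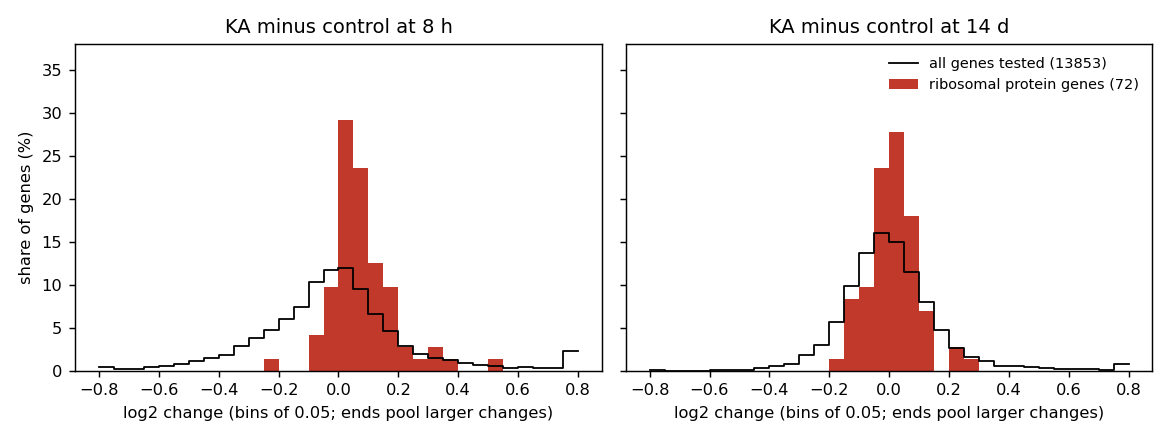
Share of genes (%, vertical axis) by KA minus control change (log2, bins of 0.05, end bins holding larger changes) at 8 h and 14 d, as red bars for the 72 ribosomal protein genes and a black line for all 13853 genes tested. The 72 genes form a narrower peak than all genes, with a median of 0.07 at 8 h and 0.01 at 14 d.

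The mean over the 72 genes was 9.28, 9.37 and 9.35 on the KA arrays at 8 h, against 9.25, 9.24 and 9.27 on the controls. At 14 d it was 9.29, 9.26 and 9.36 on the KA arrays, against 9.28, 9.29 and 9.30 on the controls. At 8 h the lowest KA array lay just above the highest control, and at 14 d the groups overlapped. By role, the paralogs averaged 6.52, 6.54 and 6.53 on the KA arrays at 8 h, against 6.29, 6.26 and 6.26 on the controls. The large-subunit and small-subunit means overlapped between the groups. Of 3 probe sets for 18S ribosomal RNA, the 3′ one read 13.08, 13.12 and 13.13 on the KA arrays at 8 h, against 13.18, 13.15 and 13.19 on the controls. The middle one read 12.94, 12.84 and 12.99 on the KA arrays and 13.02, 13.00 and 13.07 on the controls. The 5′ one overlapped, at 12.44, 12.46 and 12.58 on the KA arrays and 12.56, 12.50 and 12.65 on the controls. All 3 lie near the top of the array's range, and none was tested.

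**Figure D4:**
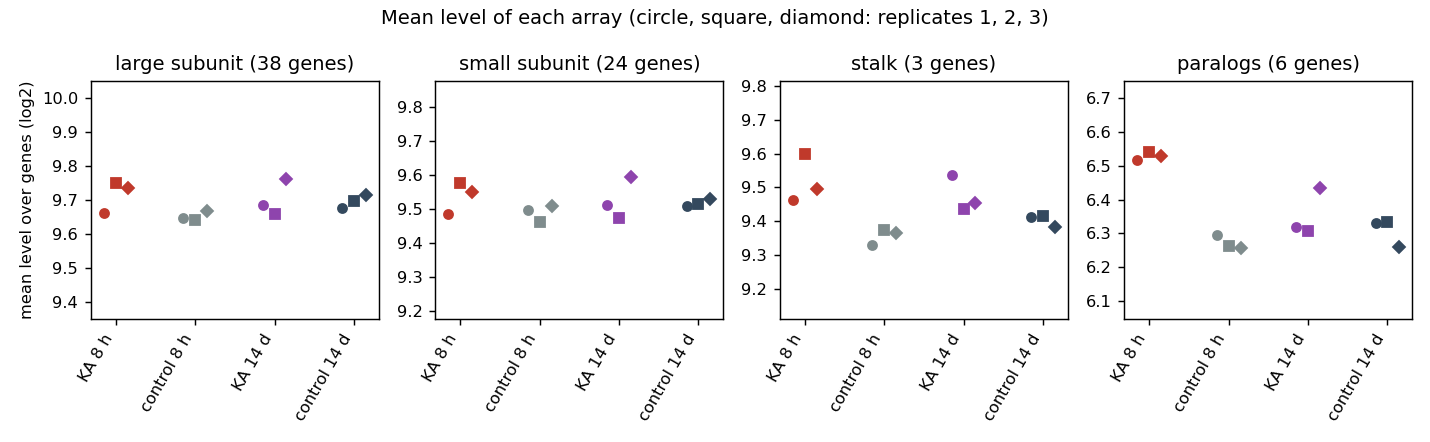
Mean level over the genes of each role (log2, vertical axis, the same span in every panel) on each array, with circles, squares and diamonds for replicates 1, 2 and 3. The stalk and paralog means of KA at 8 h lie above their controls, and the third KA array is the highest at 14 d for both subunits and the paralogs.

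At 14 d none of the 72 genes passed in limma, with 2.56% of all genes past the threshold (1.99% higher and 0.57% lower). An unadjusted p under 0.05 was found for 3 of the 72 (4.17%), beside 12.6% of all genes. The median change was 0.01, beside -0.01 over all genes, and 41 of the 72 (56.9%) were above 0, beside 47.7% of all genes. Groups did not overlap for 4 genes with KA higher and 6 with KA lower (13.9%), beside 16.5% of all genes (8.02% higher and 8.5% lower). The 95% interval lay within ±0.25 for 52 genes and within ±0.5 for 71. With limma's array weights 2 genes passed (2.78%), Rps18 higher and Rpl37 lower, while 15.2% of all genes passed in that fit.

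The genes nearest to passing at 14 d were Rps27l, Rps9 and Rps18. Rps9 had 8.07, 8.13 and 8.36 on the KA arrays and 7.95 on each control. Its change was 0.24 at 14 d (limma, adjusted p = 0.229) and 0.20 at 8 h (limma, adjusted p = 0.148), with no overlap at either time. Rps18 measured 7.67, 7.73 and 7.52 on the KA arrays and 7.55, 7.45 and 7.28 on the controls, and the groups overlapped. Of the genes lower at 14 d, Rps19bp1 had 5.89, 5.90 and 6.02 on the KA arrays and 6.06, 6.10 and 6.13 on the controls. The groups were separate there, and its change of -0.16 did not pass. Rpl7l1 differed by -0.13 and Rpl36a by -0.12, both with no overlap.

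For the change at 14 d less the change at 8 h, none of the 72 genes passed in limma. Of all genes 5.52% passed (2.45% higher and 3.06% lower). An unadjusted p under 0.05 was found for 5 of the 72 (6.94%), beside 17.8% of all genes. All 6 paralogs were below 0 in this difference, as were 56 of the 72 genes. Above 0 were 22.2% of the 72, beside 54.2% of all genes. The difference contains the change at 8 h, where all 6 paralogs and 61 of the 72 were above 0. Rpl22l1 at -0.59, Rps19bp1 at -0.39 (limma, adjusted p = 0.105) and Rpl4 at -0.27 (limma, adjusted p = 0.177) lay lowest. Rpl22l1 passed with the replicate number as a block (8.5% of all genes passed there), with array weights (15.7% of all genes), with the third arrays left out and without the third KA array at 14 d. On the other side, Rps18 at 0.19, Rpl36 at 0.17 and Rps28 at 0.09 did not pass. Changes at 8 h and at 14 d were each taken against their own controls.

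The controls were compared with each other to see how the genes differ with time after vehicle alone. None of the 72 passed between the 14 d and the 8 h controls in limma, beside 1.8% of all genes (1.12% higher and 0.679% lower). An unadjusted p under 0.05 was found for 6 of the 72 (8.33%), beside 14.8% of all genes. Groups did not overlap for 19 genes with the 14 d controls higher and for Rpl36 with them lower (27.8%), beside 25.1% of all genes (15.3% higher and 9.76% lower). Rpl13a had 10.59, 10.57 and 10.70 in the 14 d controls and 10.27, 10.35 and 10.46 in the 8 h controls. These did not overlap, and the difference of 0.26 missed the threshold (limma, adjusted p = 0.135). Rpl36al differed by 0.23 (limma, adjusted p = 0.164) and Rplp0 by 0.18. The 8 h controls, the lower ones for both genes, are those that KA at 8 h was set against. The 3′ less 5′ value of Actb also separated the controls, at -0.45 to -0.41 at 14 d and -0.31 to -0.28 at 8 h. That of Gapdh overlapped, at -0.13 to -0.04 at 14 d and -0.15 to -0.10 at 8 h. So did that of Tfrc, at -0.97 to -0.63 and -0.89 to -0.70. The part of RNA integrity in these differences was not tested.

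Other genes of the ribosome and its supply were read from lists beside the 72, with 7.92% of all genes higher and 9.55% lower at 8 h. Of 73 mitochondrial ribosomal protein genes at 8 h, 1 rose and 7 fell, with a median of -0.08. Mrps6 rose by 1.20 (limma, adjusted p = 2.15e-06), while Mrpl11 and Mrps33 fell by 0.33 and 0.32. The mitochondrial list thus had its median on the other side of 0 from the cytosolic genes, and no test compared the lists. Of 48 measured genes of ribosome biogenesis, 10 rose and none fell, with a median of 0.14. They included Fbl, the methyltransferase of ribosomal RNA, at 0.99 (limma, adjusted p = 1.19e-05), the helicase Ddx21 at 0.56 and Sbds, which readies the large subunit for use, at 0.50. Of 13 genes of RNA polymerase I, Polr1d (0.45) and Znrd1 (0.32) rose.

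Of 21 genes that control the synthesis of ribosomal proteins, 4 rose and 1 fell at 8 h. The kinase Rps6ka3 rose by 1.06 (limma, adjusted p = 8.14e-07), Rheb, the activator of mTORC1, by 1.05 and the transcription factor Myc by 0.92. Mdm2, the ligase that free ribosomal proteins can bind, rose by 0.43, and Depdc5, a part of the amino acid sensor that restrains mTORC1, fell by 0.35. Among 21 initiation factors, Eif2s2 (0.38), Eif4a1 (0.35) and Eif3b (0.32) rose and none fell. Of 17 elongation factors and other TOP messages, Pabpc1 alone rose, by 0.36, and the median was 0.06. At 14 d no gene of these lists passed in limma.

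**Figure D5:**
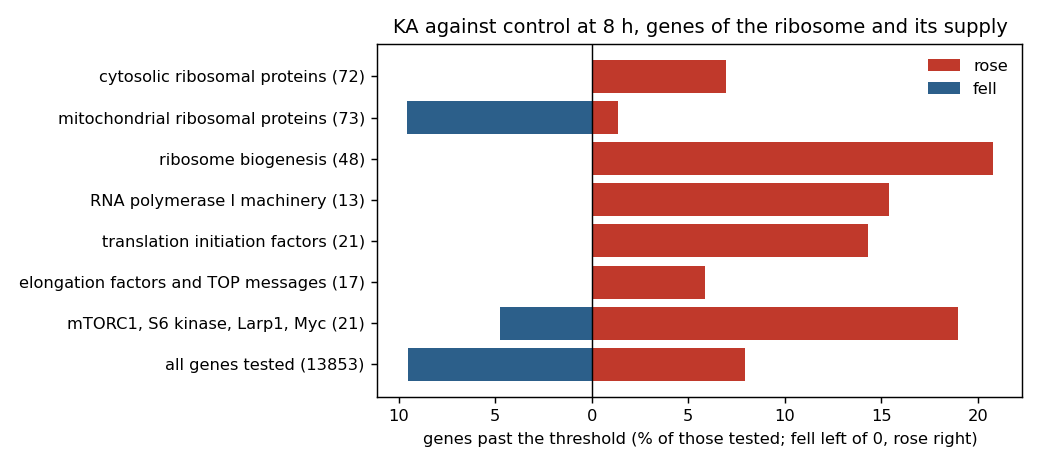
Share of tested genes past the threshold at 8 h (%, horizontal axis), with genes that rose right of 0 and genes that fell left of 0, for the 72 ribosomal protein genes, lists of related genes and all genes tested; the number tested stands in brackets. The ribosomal protein bar reaches 6.94% on the right and 0 on the left, that of ribosome biogenesis 20.8% on the right, and that of all genes 7.92% on the right and 9.55% on the left.

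Markers of the labelled tissue were present, and several cell-type lists differed between the groups. Reactive astrocyte markers rose for 9 of 10 genes at 8 h, with a list mean of 7.37 to 7.49 on the KA arrays and 5.93 to 6.31 on the controls, and for 7 of 10 at 14 d. Microglial markers gave 3 rises and 3 falls of 10 at 8 h and 9 rises of 10 at 14 d, with list means of 7.99 to 8.13 on the KA arrays and 6.69 to 6.80 on the controls at 14 d. Neuronal markers fell for 2 of 12 genes at 8 h, when 9.55% of all genes fell, and for 1 of 12 at 14 d, when 0.57% did. At 8 h 5 of the 12 were above 0, with a median of -0.02 and a range of -0.52 to 0.35. The part of these cells in the values of the 72 genes was not tested.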

How the data were processed

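RNA of 12 mouse samples, labelled as total RNA of the hippocampus and titled Input for a reason not given in the sources used here, was measured with the Mouse MG-430 PM array strip of Affymetrix. The deposited values are on the log2 scale and were made by the authors with RMA and affy, per the submitters' processing notes, which give no version; RMA pulls arrays to 1 distribution, so a shift shared by most genes is removed. Of 45141 probe sets, 28898 carry 1 symbol, 551 several and 15588 none in an older annotation; probe sets of several genes were left out. Some ribosomal protein symbols have no probe set of their own and are not analysed here.

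Genes above the 30th percentile (4.08 to 4.15) on at least 3 arrays were kept, 13853 in all. The 12 arrays entered 1 linear model in limma 3.58.1 under R 4.3.3, in which each group had its mean; 8 degrees of freedom remained, and eBayes moderated the variances; p-values are two-sided, adjusted by Benjamini-Hochberg over all genes tested, with a threshold of 0.05. The scripts were tested on simulated data. The number of arrays limits the precision. Alternatives varied the filter, probe set rule, scaling, variance model, replicate block, threshold and arrays.

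Named were, per comparison, members past the threshold or the 3 of smallest adjusted p each way, a set of standard members, and up to 3 called genes per list; Rps9 at 8 h, Rpl4, Rpl21, Rpl37, Mdm2 and Depdc5, and the controls' genes, were also named after their values were seen. The members, lists and tests were chosen with earlier results of these data known.

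Groups share replicate numbers, which the labels do not explain. Deviations of same-numbered KA and control arrays correlated at 0.155, 0.138 and 0.413 at 8 h, and at 0.164, 0.068 and 0.463 at 14 d. Differently numbered arrays correlated between -0.260 and 0.163 at 8 h, and between -0.443 and 0.349 at 14 d. At 8 h the second KA array correlated more with the first control (0.163) than with the second. The third arrays thus correlated most at both times, and pairing was not tested. The main fit had no replicate block.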

Additional observations from a re-analysis of the deposited data

Results flagged for a closer look

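No ribosomal protein gene was singled out. Among the genes of the ribosome's supply named above, 6 passed limma's test of the change at 14 d less the change at 8 h. Of all genes 5.52% passed it. The 6 had been named for a small adjusted p at 8 h, and the difference contains that change. The choice thus favours a negative difference for genes that had risen, and the 6 give no separate support. The change at 14 d less the change at 8 h was -1.25 for Mrps6 (adjusted p = 0.000173), -0.9998 for Rheb (adjusted p = 0.0118), -0.93 for Fbl (adjusted p = 0.00172), -0.89 for Rps6ka3 (adjusted p = 0.000468), -0.89 for Myc (adjusted p = 0.00229) and -0.50 for Sbds (adjusted p = 0.0152). All 6 had risen at 8 h. Their changes at 14 d were -0.04 for Mrps6, 0.05 for Rheb, 0.07 for Fbl, 0.17 for Rps6ka3, 0.04 for Myc and -0.0019 for Sbds, and none passed there. Mrps6 encodes a protein of the mitochondrial small subunit.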

How the results depend on the processing

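The number of the 72 genes past the threshold at 8 h lay between 1 and 7 over 25 alternatives, in which 9.76% to 23.8% of all genes passed; the share of the 72 was below that of all genes in all 25. It was 3 without the third arrays of the groups and 1 (Rpl36al) at an adjusted p under 0.01, 7 under cyclic loess scaling (9.72%, and 18.9% of all genes), and 2 to 6 with any single array left out; the 2 came without the second 8 h control or the second KA array. Without X- and Y-linked genes, a setting chosen after seeing the data, 5 of 68 passed. The median change at 8 h was 0.12 under cyclic loess. At 14 d the count was 0 in all alternatives but array weights (2, with 15.2% of all genes). The median at 14 d was 0.067 under cyclic loess and -0.027 to 0.036 with single arrays left out, the negative end without the third KA array. For the change at 14 d less that at 8 h, 3 genes passed with array weights (15.7% of all genes), 1 with the replicate block (8.5% of all genes), 1 with the third arrays left out (4.29% of all genes, median -0.090) and 0 to 1 with single arrays left out (without the first KA array at 8 h it was Rps19bp1). Between the controls, 4 passed with array weights (5.56%, and 9.64% of all genes) and 1 (Rpl14) with the third arrays left out (1.39%, and 1.66% of all genes). The estimation of the array weights stopped short of convergence. The cause of these moves was not tested. In the fit with the replicate block, the count stayed at 5 at 8 h and at 0 at 14 d. The direction of all 5 rises was kept in every alternative that measured the gene. Rpl36al has an s_at probe set only and was not measured with the x_at and s_at probe sets left out. Over the 72 genes, 47 kept their sign at 8 h and 24 at 14 d in every alternative that measured them. Genes that passed in some alternatives only were Rpl17, Rpl4, Rps19bp1, Rps24 and Rps9 at 8 h. Rps24 passed only without the x_at and s_at probe sets, through a dim probe set (4.12, mean over the arrays) that differed by 0.34. Its bright probe sets differed by 0.03 to 0.07. Rpl17 passed only with the mean of its probe sets, of which a dim one (4.90) differed by 0.56 and the bright one by 0.13. Genes near background (Rpl14, Rpl39l) are limited by signal.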

Other observations

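A further 15 probe sets carry a ribosomal protein symbol together with that of another gene and were left out of the 72. Their log2 changes, KA minus control, lay between -0.35 and 0.30 at 8 h, with a median of 0.09, and between -0.17 and 0.14 at 14 d, with a median of -0.03. The 4 probe sets shared by Rpl14 and its pseudogene differed by 0.09 to 0.16 at 8 h and by -0.17 to -0.12 at 14 d. The 3 probe sets of Rpl5, a large-subunit protein that binds the 5S RNA, are shared with Dipk1a; the bright one differed by 0.11 at 8 h and the dimmer ones by -0.32 and -0.35. The probe set shared by Rpl22 and a clone differed by 0.22 at 8 h and 0.10 at 14 d, with the sign of the probe set used for Rpl22.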
